A study of Homo sapiens with 15 samples.

Results

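Messenger RNA of 9 listed aldehyde dehydrogenase (ALDH) genes was followed in U87MG, an established human glioblastoma cell line, after lentiviral delivery of GFP or of 1 of the 4 ID genes. The members were the table entries with the symbols ALDH1A1, ALDH1A2, ALDH1A3, ALDH1B1, ALDH2, ALDH3A2, ALDH4A1, ALDH7A1 and ALDH9A1, which are 9 of 25737 entries and 9 of the 19 ALDH genes found in the table. The family was chosen by the measured counts of ALDH1A1, which were near 0 except under the ID1 label, so the levels of ALDH1A1 are described without a test. The 8 other members did not enter that choice by value, although earlier results of these data were known when the list was made.

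The data were 15 libraries of 3′ end messenger RNA counts (QuantSeq), with 3 libraries in each of 5 groups labelled GFP, ID1, ID2, ID3 and ID4. All cells had received lentivirus for 24 h, the GFP libraries a control vector and the others a vector for overexpression of the named ID gene, and the labels name no other allele or agent. The labels do not say that the 3 libraries of a group came from separate cultures, so the p-values measure the spread between these libraries, which may be technical. Library totals ran from 11089044 to 15148979 counts, and a floor of 3 counts equalled 0.197 to 0.270 CPM, the count scaled to library size, a limit that covers counting error only.

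The targeted genes did not all follow their labels. Counts of ID4 were 2479 to 3110 under the ID4 label and 0 to 2 with GFP. ID3 was higher under its own label, at 310 ± 11.9 against 221 ± 6.02 CPM in GFP, but stood at 291 ± 27 CPM under the ID2 label as well, in ranges that overlapped. ID1 was lower in the libraries labelled ID1, at 248 ± 2.43 CPM against 345 ± 8.19 CPM in GFP (SD, n = 3 each), and ID2 was lower in those labelled ID2, at 45.6 ± 1.57 against 85.9 ± 1.94 CPM. Neither fall was confined to its own label. ID2 stood at 34.1 ± 2.56 CPM under ID1, 46.2 ± 2.12 under ID3 and 36.0 ± 1.56 under ID4. ID1 stood at 281 ± 18.8 CPM under ID4, 320 ± 31.3 under ID2 and 325 ± 13.1 under ID3. For ID1, the libraries labelled ID4 lay wholly below GFP, whereas the ranges under ID2 and ID3 overlapped that of GFP. A 3′ tag counts a delivered gene only where the vector carries the counted 3′ end, which is not given in the sources used here, so groups are named below by their labels alone. VIM and CD44, markers of mesenchymal glioma lines, and NES, used in the study as a glioma stem cell marker, were detected in every library. The glial genes GFAP, S100B and SOX2 had 0 to 4 counts, OLIG2 had 2 to 11, and CDKN2A, deleted in this line, had 0 throughout.

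Aldehyde dehydrogenases oxidise aldehydes to carboxylic acids with NAD+ or NADP+ as the electron acceptor. The ALDH1A enzymes turn retinaldehyde into retinoic acid, the ligand of the nuclear retinoic acid receptors, and high ALDH1 activity is widely used to isolate stem-like tumour cells, those of glioma included. Other members act in mitochondria or on lipid and amino acid aldehydes. ID proteins are helix-loop-helix proteins without a DNA-binding region. They pair with E proteins and keep them from E-boxes, the letters CANNTG.

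Because E-box letters are the DNA element ID proteins act through, the 250 bases before the annotated start are shown for the 3 members on which the results turn, with CANNTG in capitals. The sequences are from RefSeq (GRCh38.p14), written 5′ to 3′ on the strand of the gene. ALDH1A1 lies at chr9:72953054-72953303 (minus strand), ALDH1A3 at chr15:100879581-100879830 (plus strand) and the first listed start of ALDH4A1 at chr1:18902556-18902805 (minus strand).
ALDH1A1: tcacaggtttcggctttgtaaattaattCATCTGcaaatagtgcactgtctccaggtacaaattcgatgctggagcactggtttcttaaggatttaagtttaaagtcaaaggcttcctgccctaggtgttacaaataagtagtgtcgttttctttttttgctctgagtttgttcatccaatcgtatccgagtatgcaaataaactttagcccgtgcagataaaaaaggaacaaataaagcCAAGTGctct
ALDH1A3: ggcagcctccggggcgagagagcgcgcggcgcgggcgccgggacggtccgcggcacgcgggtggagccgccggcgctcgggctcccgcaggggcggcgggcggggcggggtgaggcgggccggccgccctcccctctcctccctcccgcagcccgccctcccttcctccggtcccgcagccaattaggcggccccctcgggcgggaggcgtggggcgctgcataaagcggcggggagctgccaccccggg
ALDH4A1: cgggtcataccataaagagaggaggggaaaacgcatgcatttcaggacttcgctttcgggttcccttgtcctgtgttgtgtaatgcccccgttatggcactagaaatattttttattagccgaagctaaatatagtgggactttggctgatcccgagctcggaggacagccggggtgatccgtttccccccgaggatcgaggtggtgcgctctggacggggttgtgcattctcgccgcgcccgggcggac

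ALDH1A1 held 2 CANNTG matches before the start, the nearer ending 5 bases from it, whereas the windows of ALDH1A3 and of the first ALDH4A1 start held none. The second listed start of ALDH4A1, not printed, held 2 before the start. Of the 9 members, 8 were matched to the promoter table by symbol. In windows of 300 bases, which add 50 bases after the start, 6 of these 8 held CANNTG at 1 or more listed starts. The same letters, which read alike on both strands, occurred in 68.68% of all 35116 promoter windows of that length. That share counts single windows, whereas a member with more than 1 listed start counted if any of them matched. The measures are therefore unlike, and ALDH4A1 counted through its second start only. CACGTG, a form of CANNTG, occurred in 7.256% of all windows and among the members only at the second listed start of ALDH3A2. A match of letters is a description and no evidence of binding.

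ALDH1A1, the cytosolic retinaldehyde dehydrogenase, was counted mainly under the ID1 label. The libraries labelled ID1 had 194, 183 and 168 counts. The GFP libraries had 3, 0 and 0. Those labelled ID2 had 9, 2 and 7, those labelled ID3 had 2, 1 and 2, and those labelled ID4 had 11, 10 and 12. Every library labelled ID1 thus lay far above all 12 other libraries, and those labelled ID4 lay above all libraries labelled GFP, ID2 or ID3.

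In CPM, ALDH1A1 averaged 12.9 ± 0.638 under the ID1 label, 0.886 ± 0.0331 under ID4, 0.433 ± 0.268 under ID2, 0.118 ± 0.0415 under ID3 and 0.0698 ± 0.121 in GFP (SD, n = 3 each). The GFP and ID3 levels were under the floor of 3 counts per library and cannot be ordered. The summed counts of ID1 over GFP, scaled for library size, gave a ratio of 164, with a 95% exact counting interval of 55.8 to 797. The ratio was 30.1 over ID2 (18.9 to 51.2), 109 over ID3 (46.5 to 338) and 14.6 over ID4 (10.3 to 21.4). Over GFP, the ratio was 11.2 for ID4 (3.53 to 57.3), 5.45 for ID2 (1.59 to 28.9) and 1.5 for ID3 (0.292 to 9.67). These intervals cover counting error only and are no test of the groups, and those over GFP rest on 3 counts in all. As stated, ID1 itself was counted at a lower level in the libraries labelled ID1 than in GFP. In bulk RNA, a change in the number of expressing cells cannot be told apart from a change in RNA per cell.

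**Figure D1:**
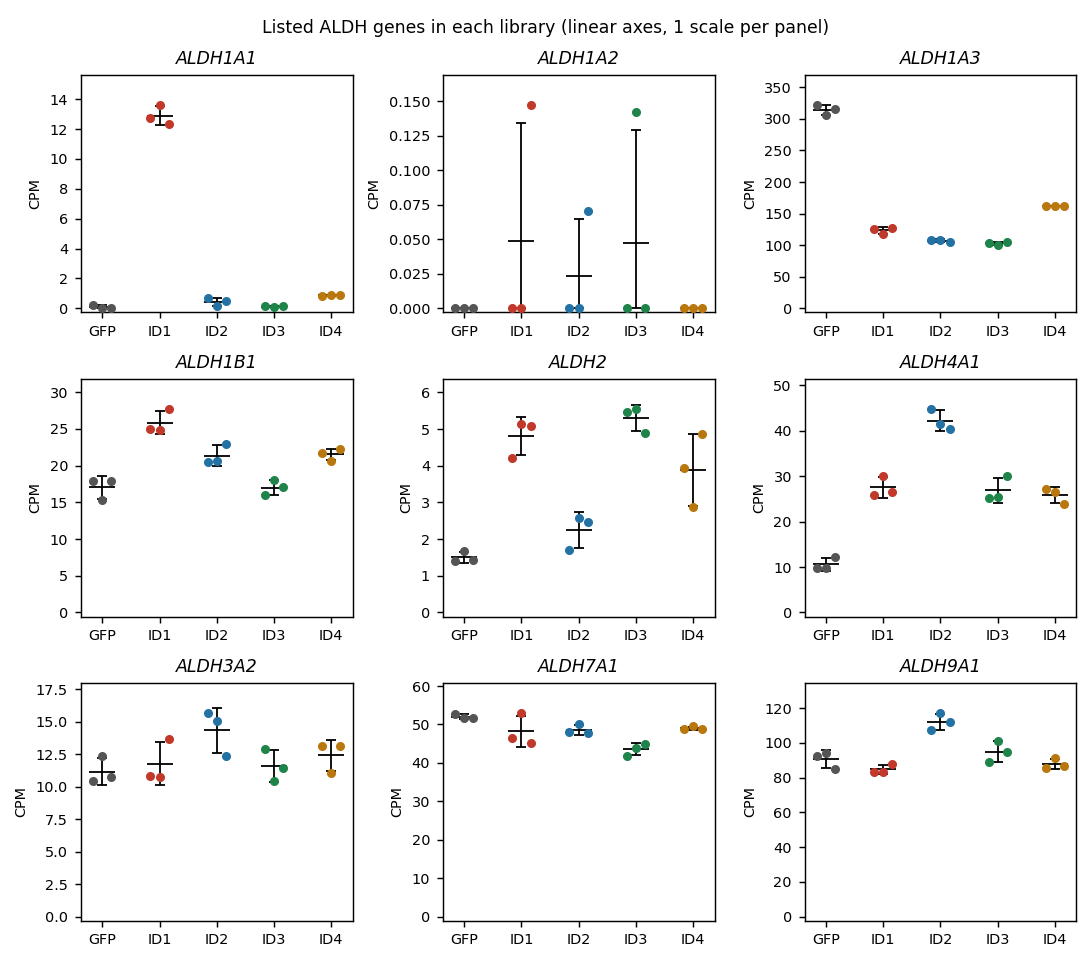
CPM of the 9 listed ALDH genes in each of the 15 libraries (points) by group, with the group mean and SD (bars, lower end stopped at 0) on linear axes that differ between panels. ALDH1A1 stood at 12.4 to 13.6 CPM under the ID1 label and below 1 CPM elsewhere, and ALDH1A3 stood highest in GFP.

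ALDH1A2, the retinaldehyde dehydrogenase best known from the embryo, had 0 to 2 counts in each of the 15 libraries, which is at or under the floor, and no difference was detectable at this depth. It was not among the genes tested, and neither was ALDH1A1, whose mean deposited log2 value of 3.19 fell just under the limit of 3.22.

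ALDH1A3, the retinaldehyde dehydrogenase linked to mesenchymal glioma cells, was highest in GFP and lower under each ID label. Its counts were 4612, 3669 and 3732 in GFP, 1914, 1572 and 1728 under ID1, 1467, 1552 and 1474 under ID2, 1528, 1419 and 1421 under ID3, and 2103, 1811 and 2133 under ID4. No library of an ID label reached the lowest GFP library. The mean level was 315 ± 8.05 CPM in GFP, 162 ± 0.519 under ID4, 123 ± 5.56 under ID1, 107 ± 2.34 under ID2 and 103 ± 2.41 under ID3 (SD, n = 3 each). The 3 libraries of each group were close together, and the group ranges of ID2 and ID3 overlapped.

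Against GFP, ALDH1A3 was 2.55-fold lower under ID1, a log2 fold change of -1.35 ± 0.05 (SE) with an adjusted p of 9.87e-15 in edgeR's quasi-likelihood test. It was 2.94-fold lower under ID2 (adjusted p = 4.66e-16, edgeR), 3.05-fold lower under ID3 (adjusted p = 5.80e-16, edgeR) and 1.94-fold lower under ID4 (adjusted p = 3.39e-12, edgeR). These contrasts share the same 3 GFP libraries and are not independent. Without the control, the order ID4, ID1, ID2, ID3 had called steps from ID4 to ID1 (log2 difference 0.40, adjusted p = 1.85e-05, edgeR) and from ID1 to ID2 (0.20, adjusted p = 0.00642, edgeR). ID2 and ID3 did not differ beyond their spread, with a log2 difference of 0.05 and a 95% interval of -0.05 to 0.16. In GRCh37 the gene lies at chr15:101417919-101456831 on the plus strand, and the antisense gene ALDH1A3-AS1 overlaps or adjoins its 3′ end. Whether counting used the strand is not given in the sources used here, so the counts of this pair cannot be told apart.

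ALDH4A1, a mitochondrial enzyme that oxidises glutamate semialdehyde from proline breakdown, had 139, 118 and 145 counts in GFP, 395, 405 and 360 under ID1, 606, 593 and 569 under ID2, 372, 358 and 405 under ID3, and 353, 294 and 314 under ID4. All 12 libraries with an ID label exceeded all GFP libraries, and those labelled ID2 exceeded all others. Mean levels were 10.6 ± 1.44 CPM in GFP, 27.5 ± 2.27 under ID1, 42.1 ± 2.30 under ID2, 26.9 ± 2.79 under ID3 and 25.8 ± 1.78 under ID4 (SD, n = 3 each).

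ALDH4A1 was 2.60-fold higher under ID1 than in GFP (log2 1.38 ± 0.11 SE, adjusted p = 2.61e-09, edgeR) and 3.98-fold higher under ID2 (log2 1.99 ± 0.11 SE, adjusted p = 1.83e-12, edgeR). It was 2.54-fold higher under ID3 (adjusted p = 3.64e-09, edgeR) and 2.44-fold higher under ID4 (adjusted p = 1.43e-08, edgeR). Among the ID labels, ID2 was above ID1 by 0.61 on the log2 scale (adjusted p = 6.60e-05, edgeR). The neighbouring levels of ID1 and ID3 differed by 0.03 (95% interval -0.17 to 0.23) and those of ID3 and ID4 by 0.06 (-0.14 to 0.26), neither beyond the spread. The gene lies at chr1:19197924-19229218 (GRCh37, minus strand), where another gene on the same strand, RP13-279N23.2, overlaps or adjoins its 3′ end, so a part of its reads could belong to that gene.

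ALDH2, the mitochondrial enzyme that clears acetaldehyde, was a low gene, with 20, 20 and 17 counts in GFP. It had 64, 69 and 69 counts under ID1, 81, 78 and 66 under ID3, 51, 32 and 64 under ID4, and 23, 37 and 35 under ID2. The groups labelled ID1, ID3 and ID4 did not overlap GFP, nor did ID2, whose lowest library of 23 counts came near it. Mean levels were 1.5 ± 0.146 CPM in GFP, 4.80 ± 0.522 under ID1, 2.25 ± 0.485 under ID2, 5.31 ± 0.348 under ID3 and 3.89 ± 0.989 under ID4 (SD, n = 3 each).

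Relative to GFP, ALDH2 rose 3.19-fold under ID1 (log2 1.67 ± 0.23 SE, adjusted p = 9.25e-06, edgeR), 3.53-fold under ID3 (adjusted p = 2.16e-06, edgeR) and 2.61-fold under ID4 (adjusted p = 1.68e-04, edgeR). Under ID2 the log2 difference of 0.59 (95% interval 0.06 to 1.12) did not pass after adjustment (adjusted p = 0.0772, edgeR). It did pass without ID2 replicate 1, at 0.75 (adjusted p = 0.0339, edgeR, with 0.0339 to 0.221 over all alternatives). The difference between labels was itself tested: ALDH2 was lower under ID2 than under ID1 (log2 difference 1.08, adjusted p = 7.47e-04, edgeR), ID3 (adjusted p = 2.35e-04, edgeR) and ID4 (adjusted p = 0.0124, edgeR). ID1, ID3 and ID4 were not told apart. The gene lies at chr12:112204691-112255336 (GRCh37, plus strand).

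ALDH1B1, a mitochondrial acetaldehyde and retinaldehyde dehydrogenase, had 256, 183 and 212 counts in GFP, 381, 334 and 376 under ID1, 277, 295 and 325 under ID2, 236, 253 and 229 under ID3, and 281, 230 and 293 under ID4. On the CPM scale the libraries labelled ID1 lay above all others, and those of ID3 overlapped GFP. Means were 17 ± 1.53 CPM in GFP, 25.8 ± 1.59 under ID1, 21.3 ± 1.43 under ID2, 17 ± 1.02 under ID3 and 21.5 ± 0.783 under ID4 (SD, n = 3 each). The rise was 0.60 ± 0.09 (SE) on the log2 scale under ID1 (adjusted p = 3.74e-05, edgeR), 0.32 under ID2 (adjusted p = 0.00831, edgeR) and 0.34 under ID4 (adjusted p = 0.0115, edgeR). Without GFP replicate 2 the ID2 value was 0.25 (adjusted p = 0.0572, edgeR) and the ID4 value 0.27 (adjusted p = 0.0734, edgeR). Over the alternatives these adjusted p ran from 0.00800 to 0.0572 and from 0.0102 to 0.0734. Under ID3 the difference from GFP was -0.01, with a 95% interval of -0.20 to 0.19. ID1 exceeded ID2 (0.28, adjusted p = 0.0311, edgeR) and ID3 (0.61, adjusted p = 1.38e-04, edgeR), but not ID4 beyond the spread (0.26, 95% interval 0.08 to 0.45 before adjustment, adjusted p = 0.101, edgeR). The gene lies at chr9:38392699-38398658 (GRCh37, plus strand).

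The remaining members differed little between groups. ALDH9A1, which acts in carnitine synthesis and on aminoaldehydes, had 1001 to 1326 counts in GFP and 1459, 1674 and 1583 under ID2. It was higher under ID2 than in GFP by 0.31 ± 0.06 (SE) on the log2 scale (112 ± 4.68 against 90.5 ± 5.13 CPM, SD, n = 3; adjusted p = 4.09e-04, edgeR) and above each of the other ID labels. ID1 (-0.10), ID3 (0.07) and ID4 (-0.04) were not called against GFP. The gene lies at chr1:165631453-165667799 (GRCh37, minus strand), and MGST3 on the opposite strand overlaps or adjoins its 3′ end.

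ALDH7A1, which acts in lysine breakdown, had 611 to 755 counts in GFP and 605 to 620 under ID3. It was lower under ID3 by 0.26 on the log2 scale, -0.26 ± 0.07 (SE), at 43.5 ± 1.56 against 52.0 ± 0.578 CPM (SD, n = 3; adjusted p = 0.00508, edgeR). The values of -0.11 for ID1, -0.10 for ID2 and -0.09 for ID4 did not pass. ALDH7A1 has processed pseudogenes that could share its reads. It lies at chr5:125866892-125931054 (GRCh37, minus strand).

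ALDH3A2, which oxidises long-chain fatty aldehydes, had 149, 148 and 127 counts in GFP and 212, 215 and 175 under ID2. In CPM the groups were barely apart, at 12.38 in ID2 replicate 3 against 12.35 in GFP replicate 2. On raw library totals these libraries stood at 12.11 and 12.26, so the groups overlapped. The log2 difference of 0.36 ± 0.13 (SE) passed narrowly (adjusted p = 0.0321, edgeR) and was lost in 4 of 6 fits that left out a library of these groups. Without GFP replicate 1 or 3 it was 0.31 or 0.33 (adjusted p = 0.123 or 0.0970, edgeR). Without ID2 replicate 1 or 2 it was 0.30 or 0.33 (adjusted p = 0.124 or 0.0949, edgeR), and over all alternatives the adjusted p ran from 0.00852 to 0.124. ID1 (0.08), ID3 (0.06) and ID4 (0.16) were not called. The gene lies at chr17:19551449-19589073 (GRCh37, plus strand), where SLC47A2 on the opposite strand overlaps or adjoins its 3′ end.

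**Figure D2:**
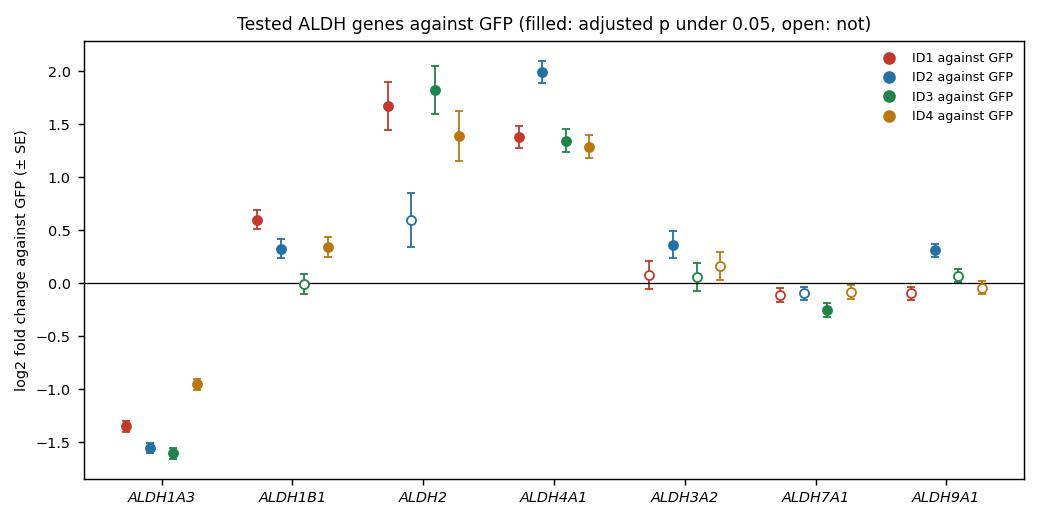
Log2 fold change against GFP with its SE for the 7 tested ALDH genes under each ID label, with filled points for an adjusted p under 0.05 (edgeR). ALDH1A3 lay between -1.61 and -0.96, ALDH4A1 between 1.29 and 1.99, and ALDH2 was open under ID2 alone.

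Counting over the 7 tested members, 3 rose and 1 fell under ID1, while 12.4% of the 12870 tested genes rose and 9.73% fell. Under ID2, 4 rose and 1 fell, beside 18.5% and 16.7% of all genes. Under ID3, 2 rose and 2 fell, beside 15.1% and 13.5%. Under ID4, 3 rose and 1 fell, beside 12.1% and 9.51%. The median log2 fold change of the 7 was 0.08, 0.32, 0.06 and 0.16 for ID1 to ID4, and that of all tested genes was within 0.01 of 0 in each contrast.

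The test of equal means among the 4 ID labels, which leaves the GFP libraries out of the contrast, called 5 of the 7 members, ALDH1A3, ALDH1B1, ALDH2, ALDH4A1 and ALDH9A1, beside 29.1% of all genes. Between pairs of labels, 5 members were called for ID1 against ID2 (18.6% of all genes), 2 for ID1 against ID3 (9.18%) and 1 for ID1 against ID4 (4.87%). The counts were 4 for ID2 against ID3 (15%), 4 for ID2 against ID4 (18.6%) and 2 for ID3 against ID4 (11.3%). The single member parting ID1 from ID4 was ALDH1A3.

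The positions of the members were set beside the genes around them, since the median of some chromosomes was away from 0. On chromosome 15 the median log2 fold change of the other 412 tested genes was 0.34 under ID1, 0.25 under ID2, 0.32 under ID3 and 0.37 under ID4, while ALDH1A3 on that chromosome was lower than in GFP. Its 17 nearest tested genes had medians of 0.49, 0.36, 0.36 and 0.33, and ALDH1A3 lay below the lowest of them in each contrast, which ran from -0.57 to -0.23. On chromosome 12, which holds ALDH2, the medians of 670 genes were 0.18, 0.20, 0.14 and 0.19. The 20 nearest tested genes of ALDH2 had medians of 0.04, -0.30, -0.03 and -0.0012, and ALDH2 lay above the highest of them under each label.

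ALDH4A1 lay above its 20 nearest tested genes as well, whose highest value was 0.85 under ID1, 0.76 under ID2, 0.78 under ID3 and 1.22 under ID4. The 20 tested genes nearest to ALDH1A1 had a median of 0.10 under ID1, from -0.24 to 0.84. ALDH1B1 was level with the highest of its neighbours under ID1 (0.60), above the highest of them under ID2 (0.29) and inside their range under ID3 and ID4. ALDH3A2, ALDH7A1 and ALDH9A1 lay inside the range of theirs under each label.

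**Figure D3:**
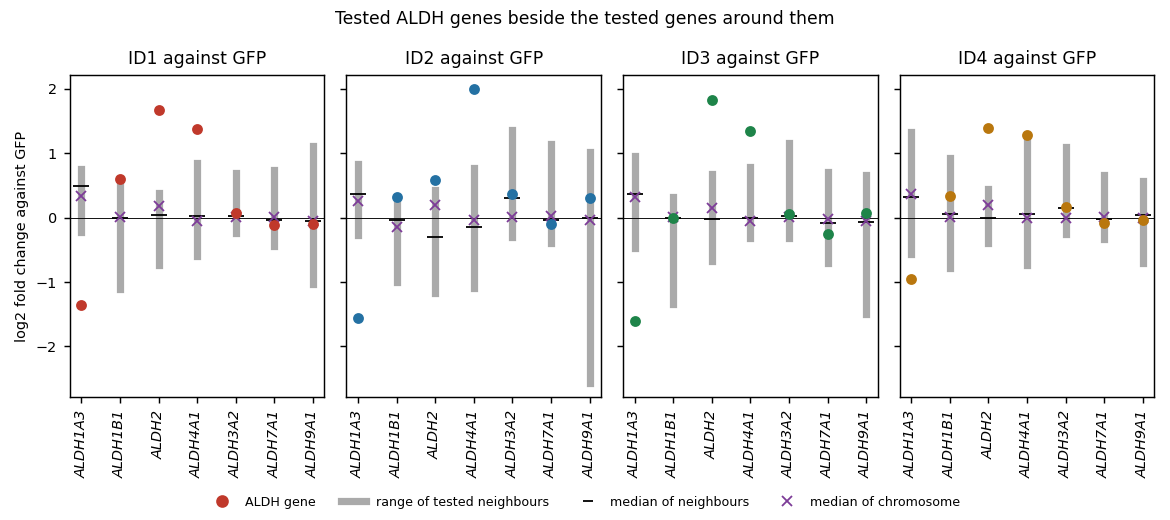
Log2 fold change of the 7 tested ALDH genes (points) under each ID label, beside the range (grey bar) and median (dash) of up to 10 tested genes on each side and the median of the chromosome (cross). ALDH1A3 lay under its grey bar, and ALDH2 and ALDH4A1 above theirs, in each panel.

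Outside the 9 listed members, 10 further ALDH genes were in the table, of which 5 were tested. ALDH1L2, the mitochondrial formyltetrahydrofolate dehydrogenase, fell under each label. It had 134 to 184 counts in GFP, 81 to 95 under ID1, 92 to 143 under ID2, 68 to 111 under ID3 and 50 to 81 under ID4. Its log2 fold changes against GFP were -0.94 (adjusted p = 5.65e-04), -0.50 (0.0286), -0.97 (3.57e-04) and -1.12 (1.45e-04), edgeR, for ID1 to ID4. NOPCHAP1 on the opposite strand overlaps or adjoins its 3′ end.

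ALDH3B1, which acts on lipid-derived aldehydes, rose under ID2 (0.55, adjusted p = 8.25e-06, edgeR) and ID3 (0.39, adjusted p = 5.37e-04, edgeR), from 92.8 ± 3.23 CPM in GFP to 136 ± 12.2 and 122 ± 10.5 CPM (SD, n = 3). ALDH6A1, the methylmalonate semialdehyde dehydrogenase, was higher under ID2 (0.28, adjusted p = 0.0258, edgeR) and lower under ID3 (-0.27, adjusted p = 0.0426, edgeR). BBOF1 on the opposite strand overlaps or adjoins the 3′ end of ALDH6A1, as a gene without a symbol does that of ALDH3B1. ALDH16A1 and ALDH18A1 were called under no label against GFP. ALDH1L1, ALDH3A1, ALDH3B2, ALDH5A1 and ALDH8A1 had 0 to 3 counts in each library, at or under the floor. Over the 12 tested genes of the family other than ALDH1A1, 3 rose and 2 fell under ID1 (12.4% and 9.73% of all tested genes), 6 and 2 under ID2 (18.5% and 16.7%), 3 and 4 under ID3 (15.1% and 13.5%), and 3 and 2 under ID4 (12.1% and 9.51%).

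Retinoic acid made by ALDH1A enzymes is bound, sensed and cleared by other proteins, and 17 of 26 such genes were tested. Among them, RXRB had repeated entries in the table, not all of which were tested. Under ID1, 3 rose and 3 fell, under ID2, 4 and 3, under ID3, 3 and 4, and under ID4, 3 and 0, beside the shares of all genes given above. The median log2 fold change of the list was 0.10, 0.20, 0.13 and 0.18.

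TGM2, tissue transglutaminase and a classical retinoic acid target, had the largest log2 fold change of this list in each contrast. It had 202 to 284 counts in GFP, 1093 to 1210 under ID1, 1301 to 1507 under ID2, 841 to 1007 under ID3 and 534 to 558 under ID4. Its log2 fold changes were 2.11 (adjusted p = 1.14e-14), 2.40 (4.69e-16), 1.80 (2.43e-13) and 1.20 (4.06e-10), edgeR. CYP26B1, which degrades retinoic acid, rose from 24.1 ± 1.65 CPM in GFP to 45.8 ± 1.83 under ID1, 60.2 ± 3.35 under ID2, 44.6 ± 3.31 under ID3 and 45.1 ± 1.47 under ID4 (SD, n = 3 each). The corresponding log2 values were 0.93 (adjusted p = 6.36e-09), 1.32 (7.45e-12), 0.89 (1.14e-08) and 0.90 (1.51e-08), edgeR.

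RDH5, a retinol dehydrogenase, rose under ID2 (0.97, adjusted p = 1.69e-05, edgeR), ID3 (0.77, adjusted p = 3.89e-04, edgeR) and ID4 (0.78, adjusted p = 5.59e-04, edgeR). RARRES1, a retinoid-induced gene at 6 to 13 counts in GFP and 16 to 27 under ID1, rose under ID1 (1.20, adjusted p = 0.0373, edgeR). The other called genes, named after their values were seen, were RDH13 (higher under ID2), CRABP2 (lower under ID1 and ID3), DHRS3 (lower under ID1 and ID2), FABP5 (lower under ID2 and ID3), RDH11 (lower under ID3) and RXRA (lower under ID1, ID2 and ID3). The receptors RARA, RARB and RARG were called under no label.

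**Figure D4:**
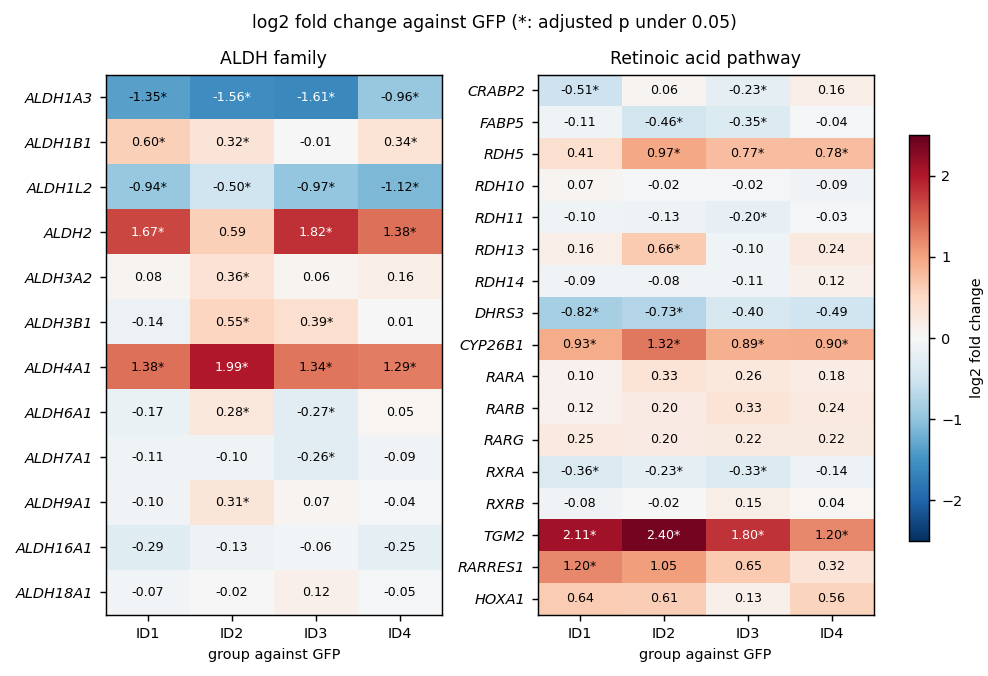
Log2 fold change against GFP of the 12 tested ALDH genes and the 17 tested retinoic acid genes (rows) under each ID label (columns), with an asterisk for an adjusted p under 0.05 (edgeR). TGM2 and CYP26B1 were raised in each column, ALDH1A3 and ALDH1L2 lowered.

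Of 18 other enzymes of aldehydes and alcohols, 14 were tested. Under ID1, 1 rose and 5 fell (12.4% and 9.73% of all tested genes), under ID2, 4 and 6 (18.5% and 16.7%), under ID3, 4 and 1 (15.1% and 13.5%), and under ID4, 2 and 1 (12.1% and 9.51%). The aldo-keto reductases, which reduce aldehydes and ketones, held the largest falls under ID1, with AKR1B10 at -0.90 (adjusted p = 0.00355), AKR1C3 at -0.79 (4.04e-07) and AKR1C2 at -0.53 (5.24e-06), edgeR. Under ID2, AKR1B10 was at -0.84 (adjusted p = 0.00336), the carbonyl reductases CBR3 at 0.54 (3.32e-05) and CBR4 at -0.51 (0.00131), edgeR. Under ID3, CBR1 fell by 0.45 (adjusted p = 3.24e-05), while AKR1C1 rose by 0.44 (1.38e-05) and AKR1C2 by 0.42 (5.30e-05), edgeR. Under ID4, CBR1 was at -0.34 (adjusted p = 9.67e-04), SORD at 0.25 (0.00333) and AOX1 at 0.22 (0.0165), edgeR. AKR1C1, AKR1C2 and AKR1C3 are related in sequence, and their counts are uncertain where reads could be split between them.

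The ranges of AKR1C2 did not overlap between ID1, GFP and ID3, with 454 to 503 counts under ID1, 569 to 713 in GFP and 896 to 949 under ID3. Of 10 genes whose products make or use the substrates of ALDH3A2, ALDH4A1, ALDH7A1 and ALDH9A1, 5 were tested. PRODH, of proline breakdown and the only gene listed for ALDH4A1, had 0 counts in every library and was not tested. The 5 tested genes thus belong to ALDH3A2, ALDH7A1 and ALDH9A1. TMLHE, the first enzyme of the carnitine route that ALDH9A1 serves, rose under ID2 (0.83, adjusted p = 0.00113, edgeR) and ID3 (0.66, adjusted p = 0.0104, edgeR). AASS, upstream of ALDH7A1 in lysine breakdown, fell under ID2 (-0.41, adjusted p = 0.0327, edgeR). SGPL1, whose product is a fatty aldehyde, was at -0.27 under ID4 (adjusted p = 0.0484, edgeR). Under ID2, 1 of the 5 rose and 1 fell (18.5% and 16.7% of all tested genes). The counts were 1 and 0 under ID3 (15.1% and 13.5%) and 0 and 1 under ID4 (12.1% and 9.51%). Under ID1, edgeR, DESeq2 and limma each called 0 of the 5, beside 22.1% of all tested genes in edgeR. With only 5 genes, 0 called cannot be told apart from that share. Of the 5, 1, TMLHE, had an unadjusted p under 0.05 under ID1 in edgeR.

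The genes whose pattern was most like that of ALDH1A1 were sought among 12780 other entries with at least 150 counts in total, by Pearson correlation of log2(CPM + 0.5) over the 15 libraries. These libraries share their groups, so r is a description. The highest were STK19 (r = 0.963), UGT2B7 (0.950), EYA3 (0.941), CHML (0.934) and ST8SIA4 (0.933). UGT2B7, a glucuronosyltransferase, had 0 counts in each GFP library, 40 to 53 under ID1 and 0 to 3 under each other ID label. ST8SIA4, a polysialyltransferase, had 9 to 24 counts in GFP, 233 to 327 under ID1, 12 to 26 under ID2, 7 to 17 under ID3 and 9 to 27 under ID4.

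STK19, EYA3 and CHML were expressed in every group and highest under ID1. STK19 stood at 107 ± 3.39 CPM under ID1 against 35.2 ± 3.54 in GFP, EYA3, a phosphatase and transcriptional coactivator, at 111 ± 2.73 against 37.6 ± 0.424, and CHML, a Rab escort protein, at 31.2 ± 2.06 against 12.2 ± 1.30 (SD, n = 3 each). In each of these 5 genes the lowest library labelled ID1 was above the highest of all others. Their choice by likeness to ALDH1A1 favours such a pattern, so it is no separate result.

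**Figure D5:**
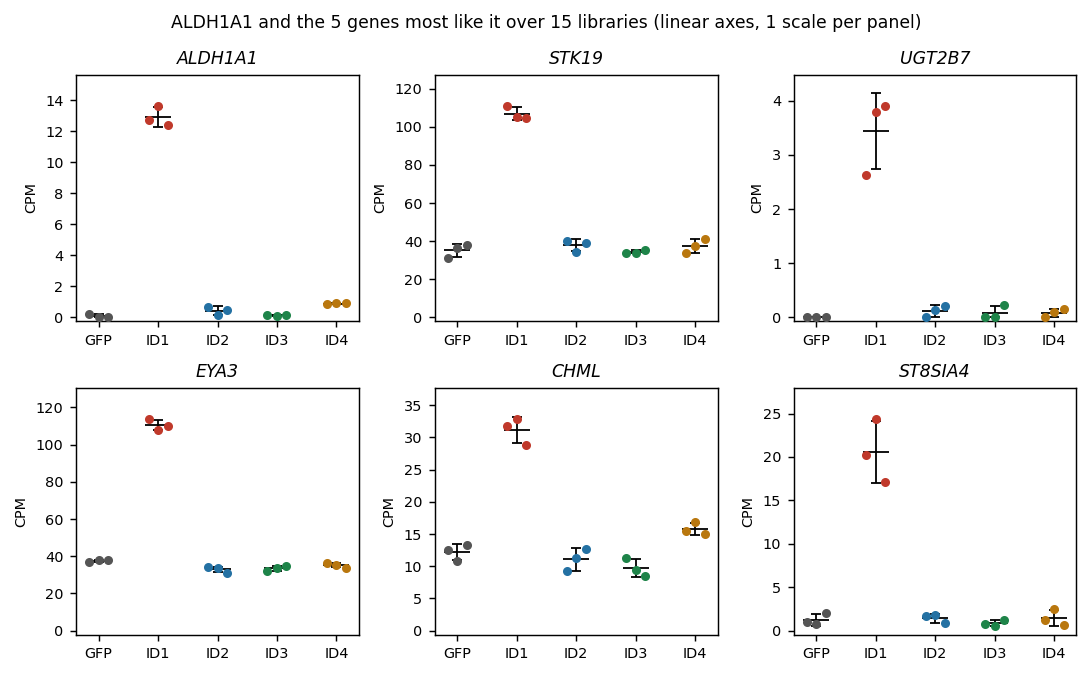
CPM of ALDH1A1 and of the 5 genes with the highest correlation to it in each of the 15 libraries (points) by group, with the group mean and SD (bars, lower end stopped at 0) on linear axes that differ between panels. The 3 libraries labelled ID1 stood above the 12 others in each panel, as the choice of these genes favours, with STK19, EYA3 and CHML also present in the other groups.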

How the data were processed

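Total RNA of U87MG cells was made into QuantSeq 3′ libraries by the company eBiogen and analysed against hg19 (GRCh37). The submitters' processing notes name Bowtie2 and BWA without roles or versions. The counting tool, annotation and strand setting are not given in the sources used here. The authors deposited raw counts per gene symbol and, for the same libraries, log2 values of the count normalized between libraries. The deposited log2 values are labelled as quantile normalized, but their columns do not share 1 distribution.

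Groups and replicate numbers came from the sample titles. Counts were tested with edgeR 4.0.16 in R 4.3.3 (TMM factors 0.978 to 1.026, common dispersion 0.00463, quasi-likelihood, group means fitted on all 15 libraries). The 12870 genes in the upper 50% of mean deposited log2 value were tested, with Benjamini-Hochberg adjustment over all of them and a threshold of 0.05. The study's own rule, applied as a fold of 2 between means with an unadjusted p under 0.05 of Student's equal-variance test on the deposited log2 values, was an alternative, as were DESeq2 1.42.0, limma 3.58.1, other filters and leaving out each library. CPM used the TMM-scaled library size. SE is the log2 fold change over the root of its F value, and 95% intervals are unadjusted. The fits of edgeR with TMM, limma with trend and DESeq2 without independent filtering were tested on simulated data, with the outcome not reported here. The other alternatives, the study's rule included, were not tested in that way.

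The members and lists were chosen with earlier results of these data known. Named genes were all members, the other ALDH genes, up to 3 called genes with the largest change per list and contrast, and the 5 most like ALDH1A1, beside exceptions named in the text. GRCh37 positions came from GENCODE, matched for 11638 of the tested genes by symbol and 742 by an older symbol. No columns were identical. Depth sets the floor of 3 counts per library. Plots used matplotlib 3.10.9 (Python 3.11.15).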

Additional observations from a re-analysis of the deposited data

How the results depend on the processing

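Of 408 log2 fold changes of the 7 tested members under alternative settings, 381 kept their direction and their side of the threshold, 21 kept only their direction and lost the call, 1 gained a call and 5 turned. The turned values were all of differences not called in any fit and came from leaving out 1 library: ALDH1B1 for ID3 ran from -0.077 to 0.033, ALDH3A2 for ID1 from -0.049 to 0.15 and ALDH3A2 for ID3 from -0.032 to 0.14. Testing only the upper 25% of genes called 2 members for ID1, 3 for ID2, 2 for ID4 and 3 among the ID labels, since fewer members were tested. Those tested were ALDH1A3, ALDH4A1, ALDH7A1 and ALDH9A1, and each kept its side of the threshold against GFP. Asking for a log2 fold change over 1 as well called 2 for ID2 and 2 for ID4, as did the rule of the study. The share of all genes called was not computed for any alternative setting, those below included, so none of these counts is set against it. Leaving out single libraries left 4 members called in the ID1 and ID3 contrasts, 4 to 5 in the ID2 contrast, 3 to 4 in the ID4 contrast and 5 among the ID labels. Of 140 counts over the wider lists, 128 stayed within 1.5 times and 12 moved. SGPL1 under ID4 was not called by DESeq2, without the filter, with only the groups compared or with the replicate block. Whether replicate numbers pair the libraries was not settled. The deviations of 30 pairs with the same number had a mean correlation of -0.018 (-0.235 to 0.234, 3 of them over 0.1). Those of 60 pairs with different numbers had a mean of 0.009 (-0.205 to 0.204, 10 of them over 0.1). Deviations were taken from group means, which ties these mean correlations together, so they are no separate comparison. With the replicate block the members called were 4, 5, 4 and 4 for ID1 to ID4 and 5 among the ID labels, as without it. ALDH1A1 under ID1 averaged 12.6 to 13.2 CPM without each of its libraries. Depth limited ALDH1A2 and 5 other ALDH genes at or under 3 counts.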
